A study of Homo sapiens with 8 samples.

Results

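The NRF2 pathway was followed through 10 genes of the deposited read-count table, chosen by name as a regulator or a known target of NRF2. Earlier results of these data were known at that choice, so counts and medians over the 10 genes are descriptions. They are NFE2L2, KEAP1, HMOX1, FTH1, NQO1, GCLC, GCLM, TXN, TXNRD1 and SRXN1. All 10 were among the 23393 genes of the table, and all 10 were among the 15262 genes that passed the expression filter and were tested. RNA-seq was performed on MDA-MB-231, an established human breast cancer line with little ASS1 and hence a need for external arginine, and on a ρ0 line derived from it. The 4 groups of 2 libraries were parental control cells, parental cells given arginine deiminase (ADI, an enzyme that degrades arginine) at 0.3 µg/mL for 48 h, ρ0 control cells and ρ0 cells given ADI at the same dose and time. ρ0 cells have lost their mitochondrial DNA, and the line sequenced here was the single clone 27. According to the study's methods, the ρ0 line was kept in sodium pyruvate, uridine and ethidium bromide, while the sample labels give all libraries the same high-glucose DMEM with serum. Loss of mitochondrial DNA, the choice of 1 clone and these culture additions cannot be told apart in any contrast between the lines. The methods describe arginine-free medium, whereas the labels describe ADI added to full medium. The starved groups are called ADI groups below.

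NRF2, encoded by NFE2L2, is a transcription factor that is made continuously and destroyed quickly. KEAP1 binds it and hands it to a CUL3 ubiquitin ligase, and reactive cysteines on KEAP1 slow that hand-over when they are modified by oxidants or electrophiles. NRF2 that escapes enters the nucleus, pairs with a small MAF protein and binds antioxidant response elements, where BACH1 can compete with it as a repressor. Its classic targets make glutathione, reduce thioredoxin and quinones, degrade heme and store iron. The study asked how loss of mitochondrial function changes the cellular response to arginine starvation, including the formation of reactive oxygen species, which is why these genes were compared between the lines. The counts measure mRNA only, so the abundance and location of the NRF2 protein were not observed.

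The antioxidant response element was sought in the genes' promoters by its core, TGACNNNGC, on both strands, since it is the sequence through which NRF2 acts. Promoter windows of 250 bases before to 50 bases after a start were taken from RefSeq on GRCh38.p14, and 8 of the 10 genes had one, with HMOX1 and FTH1 not among them. The core was found for KEAP1, GCLM and TXNRD1, which is 37.5% of the 8 genes, beside 16.1% of the 27305 genes in the promoter table. By window the shares were 36.4% of 11 and 13.3% of 35116. Each match that ended before its start is given 5′ to 3′ on the strand of its gene, with the core in capitals and 10 bases on either side. A further TXNRD1 match, at position -8 from its first start, crossed that start and is not shown. No match shown overlapped the related AP-1 motif TGANTCA.
KEAP1, chr19:10502807-10502835, minus strand: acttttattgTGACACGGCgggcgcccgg
KEAP1, chr19:10502784-10502812, minus strand: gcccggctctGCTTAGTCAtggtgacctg
GCLM, chr1:93909446-93909474, minus strand: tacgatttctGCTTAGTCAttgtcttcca
TXNRD1, chr12:104215670-104215698, plus strand: acacgggctaTGACTTCGCtgttgtcacc
TXNRD1, chr12:104286920-104286948, plus strand: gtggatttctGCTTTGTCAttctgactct
The first base of the core lay 54, 31, 34, 99 and 102 bases upstream of its start, in the order shown. The first KEAP1 match and the first TXNRD1 match had the core on the strand of the gene, and the other 3 shown had it on the opposite strand. The KEAP1 matches belonged to the second of its start sites and also fell within an exon of another KEAP1 transcript in GENCODE 29. The GCLM stretch overlapped an exon of another GCLM transcript by 11 bases, and the second TXNRD1 match shown fell within exons of other TXNRD1 transcripts. A match describes these letters only, and a window without one says nothing of NRF2 binding there.

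Between 25259503 and 31022155 reads were counted per library. Replicates of 3 groups were close, with a biological coefficient of variation of 5.16% in parental control, 2.29% in parental ADI and 1.84% in ρ0 ADI, whereas the ρ0 control libraries differed by 25.1%. In that pair all 10 genes were higher in replicate 2 than in replicate 1, by 1.04-fold for GCLM up to 2.22-fold for FTH1, with a median of 1.27-fold, while 50.1% of all tested genes were higher in replicate 2. Each pair differed by more than sampling noise. Nothing in the labels says that replicates were separate cultures, so p-values measure the spread between these libraries, which may be technical. The summed level of 5 mesenchymal markers (VIM, CD44, EGFR, AXL, CAV1) was at least 2640 CPM (TMM-scaled counts per 1000000 reads) in every library, that of 5 luminal markers at most 41.2 CPM and that of 5 melanocytic markers at most 95.6 CPM, most of it MITF. The markers moved with the groups: the mesenchymal sum was 4160 to 4200 CPM in parental control, 2640 to 2690 in parental ADI, 6930 to 8040 in ρ0 control and 6080 to 6180 in ρ0 ADI. In parental cells VIM, CD44 and CAV1 were lower after ADI, AXL was higher and EGFR overlapped. The luminal sum (ESR1, PGR, GATA3, TFF1, CDH1) was 4.71 to 5.63 CPM in the parental groups, 32.9 to 41.2 CPM in ρ0 control and 16.4 to 17.7 CPM in ρ0 ADI libraries, with ESR1 and PGR at or near 0 throughout and CDH1 near 0 in parental cells only. The melanocytic sum was 47.2 to 49.4, 87.4 to 95.6, 44.3 to 52.9 and 29.9 to 31.6 CPM in the same order, with MLANA, TYR and SOX10 at or near 0. Their part in the results below was not tested. In bulk RNA, fewer cells with a transcript and less of it per cell cannot be told apart.

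In parental cells, 8 of the 10 genes rose with ADI, 1 fell and 1 did not pass the test. All tests are edgeR's quasi-likelihood test on the counts of all 8 libraries, with p-values adjusted by the Benjamini-Hochberg method over all tested genes, and a call is an adjusted p under 0.05 at any fold change. Of all tested genes, 30.4% were called higher and 35.5% lower. HMOX1 and GCLM rose and NQO1 fell by more than 2-fold, a bound passed upward by 12.7% and downward by 22.1% of all tested genes. The 8 rises were 5 without parental control 1, without parental ADI 2 or with total count scaling, and 6 without parental control 2 or with upper quartile scaling, beside 1 fall each time. Leaving out ρ0 control 1 or 2 took the uneven pair out of the estimate of spread, and more of all tested genes then passed. FTH1 stood at -0.63 and -0.59 log2 in those fits. The median log2 change of the 10 genes was 0.61, and that of all tested genes was -0.07.

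In ρ0 cells, ADI raised 4 of the 10 genes and lowered 1, and 5 did not pass the test. The shares called over all tested genes were 19.2% higher and 22.1% lower, 6308 of 15262 in either direction. Taken in either direction, the calls among the 10 genes lay near the general share. None of the 10 genes passed the call together with the 2-fold bound, which 4.22% of tested genes did upward and 8.19% downward. The median log2 change was 0.30 for the 10 genes and -0.02 for all tested genes. These counts rested on the uneven ρ0 control pair: without its replicate 1, 4 genes rose and 4 fell, and without its replicate 2, 7 rose and 1 fell. Then the remaining control library is assumed to vary like the tighter pairs of the other groups.

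As a share of reads, most of these genes had more mRNA in ρ0 control than in parental control libraries. Among control libraries, 9 of the 10 genes were higher in ρ0 cells and none was lower, whereas 30.5% of all tested genes were called higher and 31.8% lower. Of these, 7 were more than 2-fold higher, a size reached upward by 13.6% and downward by 17.3% of tested genes. The median log2 difference was 1.23 over the 10 genes and -0.01 over all tested genes. SRXN1, the gene without a call, stood at 0.40, and at 0.77 or -0.04 without ρ0 control replicate 1 or 2. Those fits called more of all tested genes. Between ADI libraries, 6 of the 10 were higher in ρ0 cells and none was lower, with 32.9% of all tested genes higher and 33.5% lower. In this contrast 3 genes passed the 2-fold bound upward, beside 18.7% of tested genes upward and 16.8% downward. KEAP1, GCLM, HMOX1 and SRXN1 were not called, at 0.17, 0.10, -0.27 and -0.46 log2. They passed without ρ0 control replicate 1 or 2, in fits that estimate the spread without the uneven pair. The contrasts of control cells and of starvation share the control libraries, and so their values are given side by side.

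**Figure D1:**
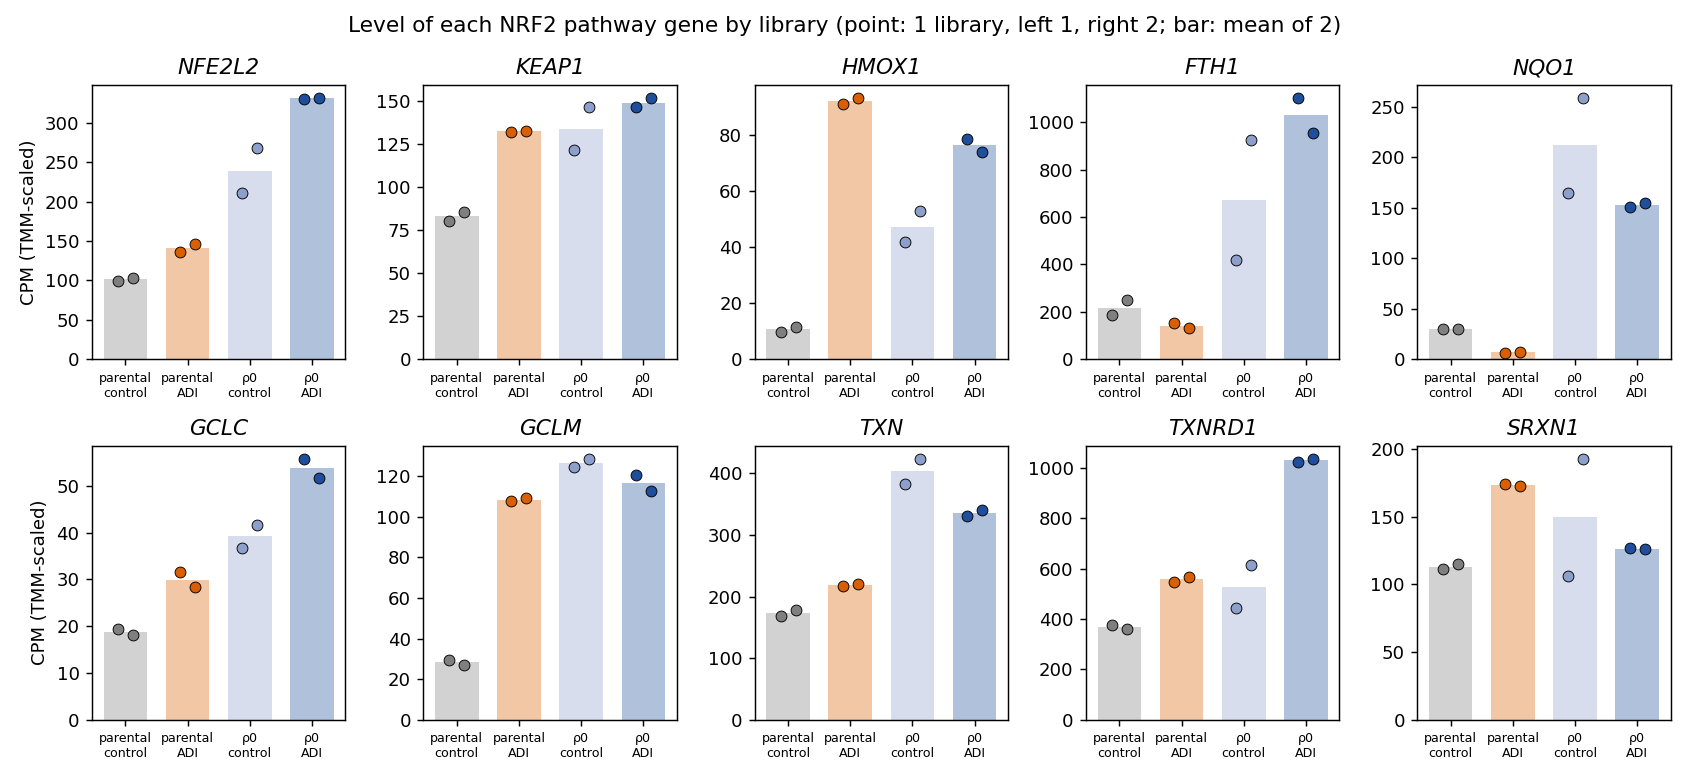
Level of each of the 10 NRF2 pathway genes in the 8 libraries, in TMM-scaled CPM on a linear axis, with 1 point per library and a bar at the group mean. HMOX1 and GCLM show 1 low group, parental control, and NQO1 shows a parental ADI group below 8 CPM and both ρ0 groups at 150 CPM or more.

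NFE2L2, which encodes NRF2 itself, rose with ADI in both lines and was higher in ρ0 cells throughout. Its level was 99.2 and 103 CPM in parental control, 136 and 146 CPM in parental ADI, 211 and 268 CPM in ρ0 control, and 330.5 and 331.8 CPM in ρ0 ADI libraries. The 4 groups did not overlap and stood in that order. ADI raised NFE2L2 1.39-fold in parental cells (log2 0.48, SE 0.117, adjusted p = 0.00809) and 1.38-fold in ρ0 cells (log2 0.47, SE 0.116, adjusted p = 0.0157). The difference between these responses was -0.01 on the log2 scale, with a 95% confidence interval of -0.395 to 0.374. ρ0 control cells held 2.36-fold more NFE2L2 mRNA than parental control cells (adjusted p = 8.44e-05), and ρ0 ADI cells 2.35-fold more than parental ADI cells (adjusted p = 7.45e-05). The rise in parental cells was lost without parental control 1 or parental ADI 2 (adjusted p = 0.0572 and 0.0607), and with total count scaling (adjusted p = 0.0515). The rise in ρ0 cells was lost without ρ0 ADI 1 or 2 (adjusted p = 0.0726 and 0.0733) and with only the ρ0 libraries in the fit (adjusted p = 0.082).

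KEAP1, the adaptor that sends NRF2 for degradation, rose with ADI in parental cells. It stood at 80.4 and 85.4 CPM in parental control and at 131.9 and 132.5 CPM in parental ADI libraries. The ρ0 control libraries held 121 and 146 CPM and the ρ0 ADI libraries 146.0 and 151.5 CPM, so that the 2 ρ0 groups overlapped. The parental rise was 1.60-fold (log2 0.67, SE 0.102, adjusted p = 0.000767), and the change in ρ0 cells was 0.15 on the log2 scale (SE 0.101, adjusted p = 0.263). The responses differed by -0.52 (SE 0.143, adjusted p = 0.0241), with adjusted p-values of 0.0642 to 0.094 when any 1 parental or ρ0 ADI library was left out and of 0.0536 and 0.0534 with upper quartile and total count scaling. Without ρ0 control 2, the ρ0 change became a rise of 0.31 (adjusted p = 8.45e-05). In control cells KEAP1 was 1.61-fold higher in ρ0 than in parental cells (adjusted p = 0.000744), and between ADI groups the log2 difference was 0.17 (95% confidence interval -0.0663 to 0.406).

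HMOX1 encodes heme oxygenase-1, which opens the heme ring and releases iron, and it is a target of both NRF2 and BACH1. It showed the largest rise of the 10 genes in parental cells. Parental control libraries held 9.62 and 11.5 CPM and parental ADI libraries 91.2 and 93.2 CPM. In ρ0 cells the control libraries held 41.8 and 52.8 CPM and the ADI libraries 78.7 and 74.0 CPM. All ρ0 libraries therefore lay between the parental groups, and no groups overlapped. The parental rise was 8.74-fold (log2 3.13, SE 0.144, adjusted p = 8.15e-06), and the ρ0 rise was 1.61-fold (log2 0.69, SE 0.131, adjusted p = 0.00515). In control cells HMOX1 was 4.49-fold higher in ρ0 than in parental cells (adjusted p = 1.44e-05). After ADI the difference was -0.27 on the log2 scale and did not pass the test (SE 0.129, adjusted p = 0.0974), although without ρ0 control 1 or 2 in the fit it did, at -0.27 and -0.24 (adjusted p = 0.000276 and 0.000694).

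FTH1 encodes the ferritin heavy chain, which oxidises iron for storage, and its ρ0 control libraries differed most among the 10 genes. It stood at 185 and 249 CPM in parental control and at 150.5 and 130.7 CPM in parental ADI libraries. The ρ0 control libraries held 417 and 925 CPM and the ρ0 ADI libraries 1103 and 957 CPM. Every ρ0 library was above every parental library. Neither starvation contrast passed the test, at -0.63 (SE 0.334, adjusted p = 0.136) in parental and 0.62 (SE 0.332, adjusted p = 0.176) in ρ0 cells. The parental change passed it as a fall without ρ0 control 1 or 2 in the fit, at -0.63 and -0.59 (adjusted p = 6.77e-06 and 2.59e-05), and the ρ0 change passed it as a rise of 1.32 without ρ0 control 2 (adjusted p = 2.36e-08). Between control groups FTH1 was 3.09-fold higher in ρ0 cells (log2 1.63, SE 0.34, adjusted p = 0.00416), a log2 difference that moved to 2.10 without ρ0 control 1 and to 0.999 without ρ0 control 2. Between ADI groups it was 7.33-fold higher in ρ0 cells (log2 2.87, SE 0.356, adjusted p = 0.000267). GENCODE 29 names 25 FTH1 pseudogenes, of which 2 had a row in the count table, so reads from near-identical copies may be counted under FTH1.

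NQO1, a cytosolic quinone reductase that uses NADPH or NADH and a standard readout of NRF2 activity, moved against most of the other genes. Its level was 29.6 and 30.0 CPM in parental control and 5.98 and 7.02 CPM in parental ADI libraries, from 986 and 863 reads down to 151 and 198. In ρ0 control libraries it was 164.4 and 258.5 CPM, and in ρ0 ADI libraries 150.2 and 154.5 CPM. No groups overlapped, and both lines were lower after ADI. NQO1 fell 4.57-fold in parental cells (log2 -2.19, SE 0.217, adjusted p = 9.65e-05). In ρ0 cells the log2 change of -0.47 did not pass the test (SE 0.189, adjusted p = 0.0819). That value followed the control pair, at -0.76 without ρ0 control 1 (adjusted p = 3.89e-10) and -0.10 without ρ0 control 2. Against parental cells, NQO1 was 7.11-fold higher in ρ0 control cells (log2 2.83, SE 0.204, adjusted p = 2.33e-05) and 23.4-fold higher in ρ0 ADI cells (log2 4.55, SE 0.229, adjusted p = 4.06e-06).

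The glutamate-cysteine ligase genes catalyse the first and limiting step of glutathione synthesis, GCLC as the catalytic and GCLM as the modifier subunit. GCLM stood at 29.3 and 27.2 CPM in parental control and at 108 and 109 CPM in parental ADI libraries. In ρ0 cells it was 124.2 and 128.5 CPM in control and 121 and 112 CPM in ADI libraries. The parental control group thus stood apart from 3 groups that lay within 108 to 129 CPM. The parental rise was 3.83-fold (log2 1.94, SE 0.0819, adjusted p = 6.74e-06). In ρ0 cells the change was -0.12 (SE 0.078, adjusted p = 0.267), with a 95% confidence interval of -0.3 to 0.0653. Of the alternatives run, it passed the test only without ρ0 control 1, at -0.14 (adjusted p = 0.0456). GCLM was 4.47-fold higher in ρ0 than in parental control cells (adjusted p = 1.77e-06), while between ADI groups the log2 difference was 0.10 (95% confidence interval -0.0783 to 0.287).

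GCLC was lower in level than its partner and responded in both lines. It was 19.4 and 18.2 CPM in parental control, 31.6 and 28.3 CPM in parental ADI, 36.8 and 41.7 CPM in ρ0 control, and 55.8 and 51.8 CPM in ρ0 ADI libraries. The 4 groups stood in that order without overlap, as for NFE2L2. ADI raised GCLC 1.59-fold in parental cells (log2 0.67, SE 0.11, adjusted p = 0.00116) and 1.37-fold in ρ0 cells (log2 0.45, SE 0.107, adjusted p = 0.0129). The ρ0 rise had an adjusted p of 0.0941 without ρ0 ADI 1 and of 0.0583 with only the ρ0 libraries in the fit. ρ0 cells held 2.09-fold more GCLC mRNA in control (adjusted p = 0.000126) and 1.80-fold more after ADI (adjusted p = 0.000323).

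TXN encodes thioredoxin, the small protein that reduces disulfides in other proteins, and it moved in opposite directions in the lines. It was 168 and 179 CPM in parental control and 217 and 221 CPM in parental ADI libraries. The ρ0 control libraries held 383 and 424 CPM and the ρ0 ADI libraries 331.5 and 340.3 CPM. Every group stood apart, with ρ0 cells above parental cells. TXN rose 1.26-fold with ADI in parental cells (log2 0.34, SE 0.082, adjusted p = 0.00812) and fell 1.20-fold in ρ0 cells (log2 -0.26, SE 0.0817, adjusted p = 0.0362). Both calls were fragile. The parental rise was lost without parental control 1 or parental ADI 2 (adjusted p = 0.0618 and 0.0594) and with upper quartile or total count scaling (log2 0.22 and 0.17, adjusted p = 0.0538 and 0.111), and the ρ0 fall was lost when any 1 parental or ρ0 ADI library was left out (adjusted p = 0.0646 to 0.221), without a filter (adjusted p = 0.0762) and with only the ρ0 libraries in the fit (adjusted p = 0.173). ρ0 cells held 2.32-fold more TXN mRNA in control (adjusted p = 1.82e-05) and 1.53-fold more after ADI (adjusted p = 0.000385). GENCODE 29 names 7 TXN pseudogenes, none with a row in the table.

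TXNRD1, the cytosolic reductase that recharges thioredoxin with electrons from NADPH, rose in both lines. Parental control libraries held 376 and 360 CPM and parental ADI libraries 547 and 568 CPM. Levels in ρ0 cells were 444 and 612.5 CPM in control and 1025 and 1036 CPM in ADI libraries. The ρ0 control libraries fell on either side of the parental ADI libraries, and the ρ0 ADI libraries were the highest. The rise was 1.51-fold in parental cells (log2 0.60, SE 0.141, adjusted p = 0.00678) and 1.95-fold in ρ0 cells (log2 0.96, SE 0.142, adjusted p = 0.00181). The parental call was lost without parental control 2 (adjusted p = 0.0531). TXNRD1 was 1.44-fold higher in ρ0 control cells (log2 0.52, SE 0.141, adjusted p = 0.0135), which was 0.74 without ρ0 control 1 and 0.33 without ρ0 control 2. That call was lost without parental control 1 or 2 (adjusted p = 0.06 and 0.0854) and with only the control libraries in the fit (adjusted p = 0.066). After ADI it was 1.85-fold higher in ρ0 cells (log2 0.89, adjusted p = 0.000979).

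SRXN1 encodes sulfiredoxin, which restores over-oxidised peroxiredoxins. It stood at 111 and 115 CPM in parental control and at 174.6 and 173.0 CPM in parental ADI libraries. In ρ0 cells it was 106 and 193 CPM in control and 127 and 126 CPM in ADI libraries, so that the ρ0 control pair spanned both ρ0 ADI libraries and every parental library. The parental rise was 1.54-fold (log2 0.62, SE 0.234) and just passed the test (adjusted p = 0.048). It was lost when any 1 of the parental or ρ0 ADI libraries was left out (adjusted p = 0.0617 to 0.174) and with upper quartile or total count scaling, a stricter filter or limma-voom (adjusted p = 0.0507 to 0.129). In ρ0 cells the change of -0.24 (SE 0.233, adjusted p = 0.444) took either sign with the control library left out, at -0.61 without replicate 1 (adjusted p = 3.57e-09) and 0.27 without replicate 2 (adjusted p = 0.000235). The difference between the control groups, 0.40 (SE 0.233, adjusted p = 0.171), was 0.77 without ρ0 control 1 (adjusted p = 4.45e-11) and -0.04 without ρ0 control 2. Between ADI groups it was -0.46 (SE 0.233, adjusted p = 0.119), with both ρ0 libraries below both parental libraries.

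**Figure D2:**
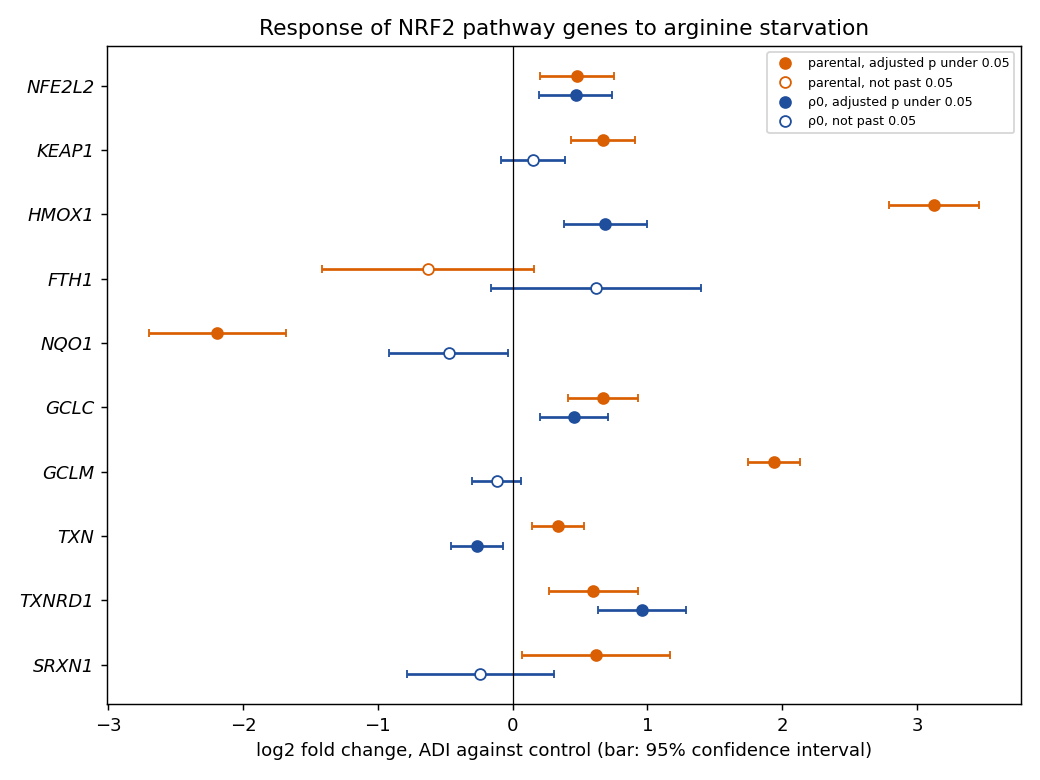
Change of each gene with ADI against control in parental and in ρ0 cells, as log2 fold change with its 95% confidence interval from edgeR, filled where the adjusted p is under 0.05. In parental cells HMOX1 (3.13) and GCLM (1.94) lie far to the right and NQO1 (-2.19) far to the left, whereas all ρ0 values lie between -0.47 and 0.96.

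The response to ADI differed between the lines for 5 of the 10 genes. The difference, taken as the ρ0 log2 change minus the parental log2 change, was called lower in ρ0 cells for HMOX1, GCLM, TXN and KEAP1 and higher for NQO1. Over all tested genes 21.6% were called higher and 18.8% lower, 6167 of 15262 in either direction. The count of 5 in 10 thus lay near the general share. HMOX1 responded less in ρ0 cells by 2.44 log2 units (SE 0.19, adjusted p = 0.000258), with -2.60 and -2.29 after leaving out ρ0 control 1 and 2. GCLM responded less by 2.06 (SE 0.112, adjusted p = 9.71e-05), and over every alternative the difference stayed within -2.13 to -1.96. For NQO1 the difference was 1.72 (SE 0.286, adjusted p = 0.00372), with 1.43 and 2.05 without ρ0 control 1 and 2. These 3 genes thus moved less in ρ0 cells, whether the parental movement was a rise or a fall.

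TXN differed by -0.60 (SE 0.116, adjusted p = 0.00651). FTH1 differed by 1.24 (SE 0.471, adjusted p = 0.0709) and SRXN1 by -0.86 (SE 0.33, adjusted p = 0.0739), neither of which passed. DESeq2 called both (adjusted p = 0.0167 and 0.0317), as did the fits without ρ0 control 1 or 2, where FTH1 gave 0.78 and 1.90 and SRXN1 -1.22 and -0.39. For GCLC the difference was -0.22 (95% confidence interval -0.576 to 0.142) and for TXNRD1 it was 0.36 (95% confidence interval -0.0999 to 0.829). Leaving out ρ0 control 1 brought GCLC (-0.29, adjusted p = 0.0232), TXNRD1 (0.16, adjusted p = 0.0236) and NFE2L2 (-0.17, adjusted p = 0.036) past the threshold, and leaving out ρ0 control 2 brought TXNRD1 past it at 0.59 (adjusted p = 1.08e-07). In these fits the spread was estimated without the uneven pair, and more of all tested genes were called as well.

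**Figure D3:**
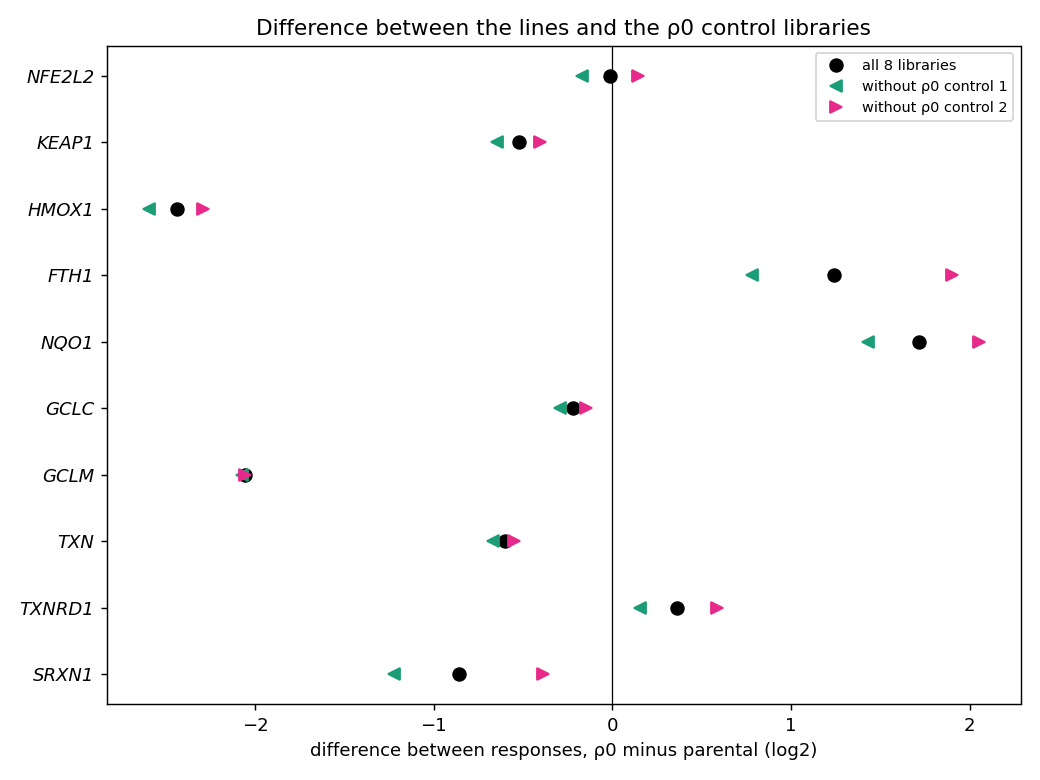
Difference between the starvation responses of the lines (ρ0 minus parental, log2) for each gene, with all 8 libraries and without each ρ0 control library. HMOX1, GCLM and NQO1 keep values beyond 1 or -1 in all 3 fits, NFE2L2 falls on both sides of 0, and FTH1 moves from 0.78 to 1.90.

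**Figure D4:**
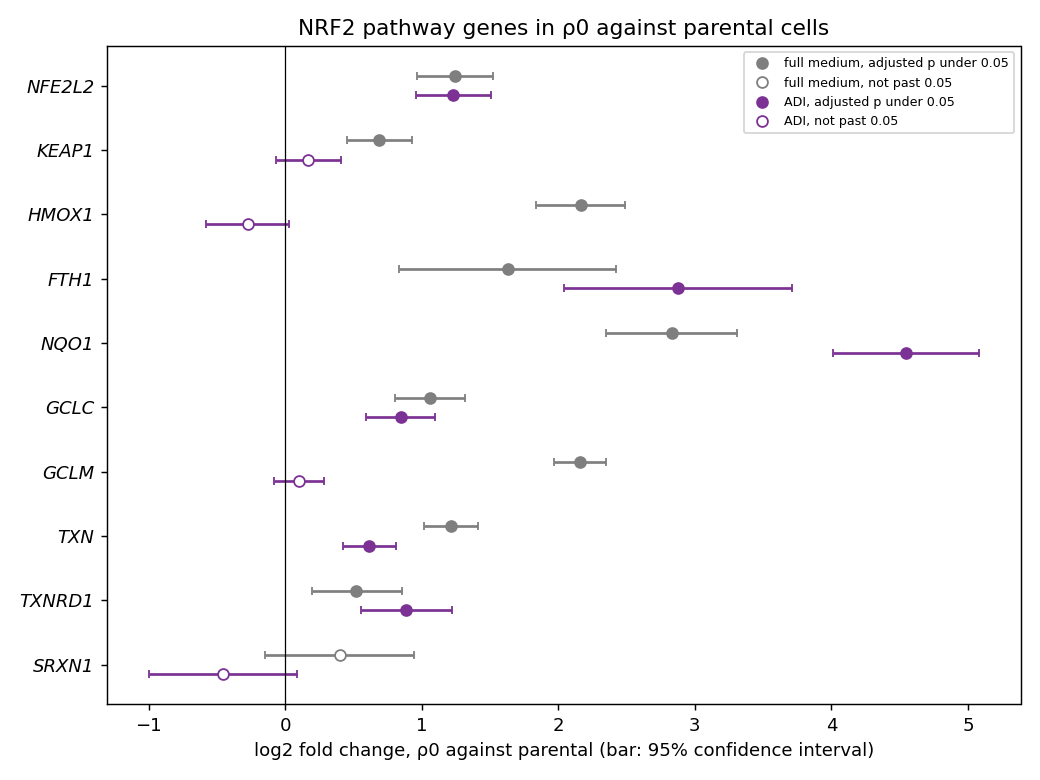
Difference between ρ0 and parental cells for each gene, as log2 fold change with its 95% confidence interval, among control libraries (full medium) and among ADI libraries, filled where the adjusted p is under 0.05. NQO1 is the highest in both, at 2.83 and 4.55, and HMOX1 and GCLM go from 2.17 and 2.16 in control to -0.27 and 0.10 after ADI.

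Levels of different genes were compared per kilobase of their principal transcript (CPM per kb, mean of 2 libraries). In parental control cells TXN (200) and FTH1 (176) were the highest, followed by TXNRD1 (93.6), SRXN1 (42.0), NFE2L2 (35.5) and KEAP1 (28.1). The lowest were NQO1 (10.2), GCLM (5.82), HMOX1 (5.80) and GCLC (4.93). In ρ0 control cells FTH1 (546) and TXN (464) changed order between the 2 libraries, and NQO1 (72.6) stood above SRXN1 (55.4) in each library. In ρ0 ADI cells FTH1 (838) stood above TXN (387), and NQO1 (52.3) above SRXN1 (46.9). GCLM and HMOX1 shared a level of 26.0 CPM per kb in ρ0 control cells. In parental ADI cells HMOX1 (50.6) was the level neighbour of NFE2L2 (49.5), and NQO1 (2.23) was the lowest of all 10. The ranges of the libraries overlapped between TXN and FTH1 and between GCLM and HMOX1 in parental control cells and between NFE2L2 and HMOX1 in parental ADI cells. TXN was above FTH1 within each parental control library. The choice of transcript enters each value.

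Beyond the 10 genes, 70 further genes, of the NRF2 pathway or partners of its products, were listed by role, and 68 of them were tested. They are called pathway genes here for short, and whether NRF2 drove any change in them was not tested. In parental cells 25 of the 68 rose with ADI and 31 fell, with a median log2 change of -0.13. In ρ0 cells 19 rose and 25 fell, with a median of -0.12. Between the lines, 31 were higher and 18 lower in ρ0 control cells (median 0.20), and 33 were higher and 19 lower after ADI (median 0.44). With genes at 3 counts or fewer in a group set to their bound against 3 counts per library, these medians were -0.04, -0.12, 0.20 and 0.43. GSTM1, AKR1B10, AKR1C1, AKR1C2 and ALDH3A1 passed the expression filter through ρ0 libraries only. Between the lines they could only come out higher in ρ0 cells. Of all tested genes, the shares called higher and lower were 30.4% and 35.5% in parental starvation and 19.2% and 22.1% in ρ0 starvation. In ρ0 against parental cells they were 30.5% and 31.8% in control and 32.9% and 33.5% after ADI. For the difference between responses they were 21.6% and 18.8%. The same shares stand beside the counts of each role list below. The response differed between the lines for 35 of the 68, 20 higher and 15 lower in ρ0 cells.

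Among 17 regulators and partners, 9 rose and 5 fell in parental cells and 9 rose and 3 fell in ρ0 cells. Against parental cells, 4 were higher and 6 lower in ρ0 control cells, and 6 were higher and 7 lower after ADI. MAFF, a small MAF protein that can pair with NRF2, had one of the largest rises in ρ0 cells. It went from 42.4 and 57.2 CPM to 271 and 264 CPM there (log2 2.43, SE 0.14, adjusted p = 8.24e-05), and from 99.5 and 107 CPM to 383 and 375 CPM in parental cells. BACH1, the repressor that competes for the NRF2 element and is itself removed when heme is bound, was 5.62-fold lower in ρ0 than in parental control cells (log2 -2.49, SE 0.128, adjusted p = 5.81e-06). Its level was 355 and 310 CPM in parental control, 243 and 253 CPM in parental ADI, 65.9 and 52.4 CPM in ρ0 control, and 115 CPM in both ρ0 ADI libraries. BACH1 mRNA therefore went down with ADI in one line and up in the other, without overlap, and the responses differed by 1.38. BACH2, a related repressor, was also lower in ρ0 cells, by 6.97-fold in control (log2 -2.80, adjusted p = 6.54e-05) and 3.95-fold after ADI (log2 -1.98, adjusted p = 0.000254).

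In the list for glutathione supply and use, 13 genes were tested, of which 4 rose and 8 fell in parental cells and 3 rose and 6 fell in ρ0 cells. Against parental cells, 7 were higher and 3 lower in ρ0 control cells, and 5 were higher and 3 lower after ADI. SLC3A2 and SLC7A11 are the heavy chain and the transporting chain of system xc-, which brings in cystine for glutathione. SLC3A2 went from 135 and 144 CPM to 1426 and 1448 CPM in parental cells, 10.3-fold (log2 3.37, SE 0.246, adjusted p = 2.81e-05), and from 303 and 535 CPM to 1158 and 1157 CPM in ρ0 cells. Its response was smaller in ρ0 cells by 1.90 (SE 0.32, adjusted p = 0.00387), with -2.25 and -1.46 without ρ0 control 1 and 2. SLC7A11 rose 5.80-fold in parental cells, from 95.9 and 83.4 CPM to 519 and 522 CPM (adjusted p = 9.12e-05). In ρ0 cells it rose 3.36-fold, from 41.1 and 74.6 CPM to 190.0 and 199 CPM (adjusted p = 0.00144). The responses were not called different (-0.79, adjusted p = 0.0982). After ADI SLC7A11 was 2.68-fold lower in ρ0 than in parental cells (log2 -1.42, SE 0.239, adjusted p = 0.00128). CHAC1, which degrades glutathione, rose 5.56-fold in ρ0 cells, from 8.95 and 20.8 CPM to 81.1 and 84.4 CPM (adjusted p = 0.00112). It rose 4.45-fold in parental cells, from 16.2 and 17.4 CPM to 75.0 and 74.7 CPM (adjusted p = 0.000698). The difference between these responses, 0.32, was not called (adjusted p = 0.595).

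The mu-class glutathione transferases of the list did not move alike. GSTM4 fell 16-fold in parental cells, from 10.8 and 11.4 CPM to 0.554 and 0.815 CPM (log2 -4.00, SE 0.188, adjusted p = 8.4e-06). In ρ0 cells it fell 3.84-fold, from 21.4 CPM in both control libraries to 5.81 and 5.30 CPM (adjusted p = 0.000175), a response that differed from the parental one by 2.06 (adjusted p = 0.00107). GSTM1 fell 3.06-fold in ρ0 cells, from 301 and 340 reads to 113 and 76 (adjusted p = 0.00209). In parental cells it had 3 and 7 reads in control and 0 and 1 after ADI. GSTM1 passed the expression filter through ρ0 libraries only, so no fold or p-value between the lines is given. GSTM3, named after its values were seen, was 59.5 and 64.6 CPM in parental control, 91.1 and 89.6 CPM in parental ADI, 81.2 and 120 CPM in ρ0 control, and 69.1 and 67.9 CPM in ρ0 ADI libraries. It rose in parental cells (log2 0.54, SE 0.165, adjusted p = 0.0212) and fell in ρ0 cells (log2 -0.56, SE 0.165, adjusted p = 0.031). The parental rise was lost when any 1 parental library was left out (adjusted p = 0.0693 to 0.119) and with upper quartile or total count scaling (adjusted p = 0.0577 and 0.0851). The ρ0 fall was lost when any 1 parental or ρ0 ADI library was left out (adjusted p = 0.062 to 0.15) and with only the ρ0 libraries in the fit (adjusted p = 0.129). GSTM genes resemble each other closely, so reads may be divided among them.

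Of 6 NADPH suppliers, 1 rose and 3 fell in parental cells and 1 rose and 1 fell in ρ0 cells. Against parental cells, 2 were higher and 2 lower in ρ0 control cells, and 4 were higher and 1 lower after ADI. IDH1, the cytosolic isocitrate dehydrogenase, fell 14.7-fold in parental cells, from 51.1 and 56.6 CPM to 3.05 and 4.25 CPM (log2 -3.87, SE 0.364, adjusted p = 7.69e-05). In ρ0 cells it was 83.1 and 39.7 CPM in control and 76.0 and 75.1 CPM after ADI. The responses differed by 4.18 (SE 0.469, adjusted p = 0.00091), and after ADI IDH1 was 20.6-fold higher in ρ0 than in parental cells (adjusted p = 4.02e-05). Of 5 thioredoxin partners, 3 rose and 1 fell in parental cells and 1 rose and 1 fell in ρ0 cells. Against parental cells, 1 was higher and 4 lower in ρ0 control cells, and 3 were lower after ADI. Of all tested genes, 31.8% were lower in control and 33.5% after ADI. TXNIP, which binds and inhibits thioredoxin, rose 3.60-fold in ρ0 cells, from 323 and 539 CPM to 1547 and 1556 CPM (adjusted p = 0.000672). In parental cells it rose 2.28-fold, from 810 and 752 CPM to 1771 and 1782 CPM (adjusted p = 0.00163). The difference between these responses, 0.66, was not called (adjusted p = 0.109). TXNRD2, the mitochondrial thioredoxin reductase, was 2.43-fold lower in ρ0 control cells (adjusted p = 0.000734) and 4.86-fold lower in ρ0 ADI cells (adjusted p = 4.09e-05), at 19.4 and 21.5 CPM after ADI against 102 and 97.1 CPM in parental cells.

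Of 7 further heme and iron genes, 2 rose and 4 fell in parental cells and 2 rose and 2 fell in ρ0 cells. Against parental cells, 4 were higher and 1 lower in ρ0 control cells, and 6 were higher after ADI. Of all tested genes, 30.5% were higher in control and 32.9% after ADI. FTL, the ferritin light chain that partners FTH1, was singled out after its values were seen. It went from 438 and 442 CPM to 1828 and 1832 CPM in parental cells (4.16-fold, log2 2.06, SE 0.229, adjusted p = 0.000166), where FTH1 had no call. In ρ0 cells it went from 1481 and 2578 CPM to 3752 and 3587 CPM (log2 0.85, SE 0.221, adjusted p = 0.0185), a call lost without ρ0 ADI 1 or 2 (adjusted p = 0.0835 and 0.0682) and with only the ρ0 libraries in the fit (adjusted p = 0.0942). ABCB6, a porphyrin transporter, fell 5.71-fold in parental cells, from 15.1 and 17.5 CPM to 3.05 and 2.66 CPM (adjusted p = 1.53e-05). SLC40A1, the iron exporter ferroportin, went from 164 and 113 reads to 8 and 2 in parental cells and from 294 and 324 to 172 and 145 in ρ0 cells, with a difference between responses of 3.73 (SE 0.482, adjusted p = 0.00148).

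The list of detoxifying oxidoreductases and conjugation, with 14 genes tested, had the highest median difference between the lines of the 7 lists. It also holds OSGIN1, PIR and TRIM16L, which have other roles. In parental cells 2 rose and 8 fell, with a median log2 change of -1.30 (-0.99 with bounds), and in ρ0 cells 2 rose and 11 fell, with a median of -1.06 (-1.06 with bounds). In ρ0 against parental cells, 10 were higher and 1 lower in control (median 1.67) and 10 were higher and 2 lower after ADI (median 2.98, or 2.17 with bounds). These counts and medians include AKR1B10, AKR1C1, AKR1C2 and ALDH3A1, which had at most 7 reads in any parental library. They passed the expression filter through ρ0 libraries only, so between the lines they could only come out higher in ρ0 cells. AKR1C1, an aldo-keto reductase of close paralogs, had 7 and 5 reads in parental control, 0 in both parental ADI libraries, 317 and 569 in ρ0 control and 140 and 133 in ρ0 ADI libraries. It fell 2.87-fold with ADI in ρ0 cells (log2 -1.52, SE 0.266, adjusted p = 0.00528), a call lost without ρ0 ADI 1 (log2 -1.39). Because AKR1C1 passed the filter through ρ0 libraries only, no fold or p-value between the lines is given for it. TRIM16L, a TRIM16-like gene listed with this group, was 10.2-fold higher in ρ0 control cells (adjusted p = 1.47e-05) and 30-fold higher in ρ0 ADI cells (adjusted p = 5.19e-06). OSGIN1, a growth inhibitor induced by oxidative stress, rose 5.07-fold in parental cells, from 8.66 and 8.82 CPM to 43.2 and 45.5 CPM (adjusted p = 2.87e-05), and its response was smaller in ρ0 cells by 1.77 (SE 0.235, adjusted p = 0.00161).

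Of 6 exporters of drugs and conjugates, 4 rose and 2 fell in parental cells and 1 rose and 1 fell in ρ0 cells. Against parental cells, 3 were higher and 1 lower in ρ0 control cells, and 2 were higher and 3 lower after ADI. ABCC3 stood at 75.1 and 74.7 CPM in ρ0 ADI and 4.32 and 4.86 CPM in parental ADI libraries, a 16.3-fold difference (log2 4.03, SE 0.103, adjusted p = 4.12e-07). ABCG2, an efflux pump for many drugs, went from 5.07 and 5.14 CPM to 22.9 and 20.3 CPM in parental cells and from 16.3 and 21.4 CPM to 15.4 and 14.4 CPM in ρ0 cells. Its responses differed by -2.42 (SE 0.22, adjusted p = 0.000452).

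**Figure D5:**
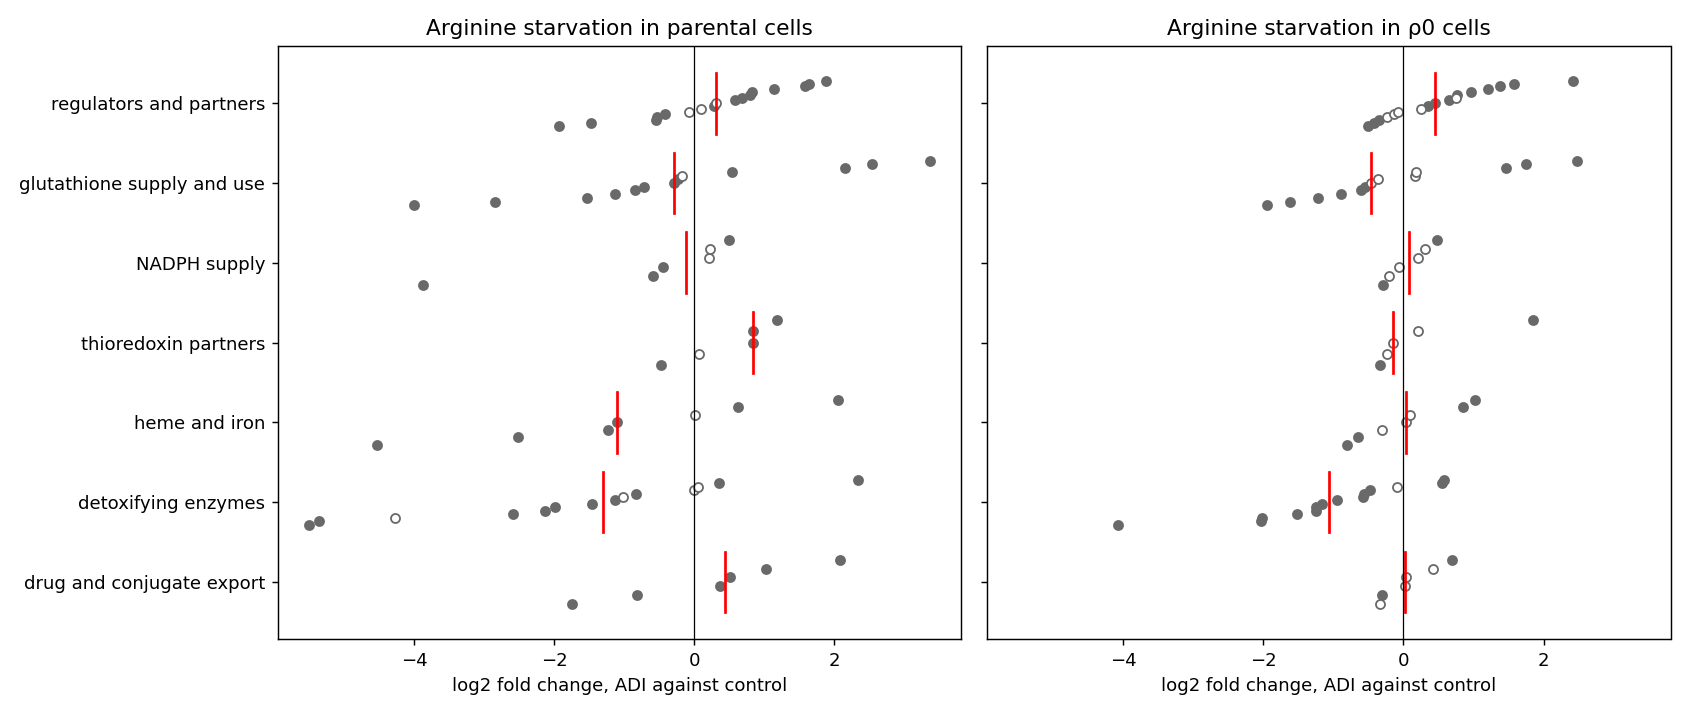
Log2 fold change of the 68 other tested pathway genes by role, 1 point per gene, with ADI in parental and in ρ0 cells and a line at each median. The list of detoxifying oxidoreductases and conjugation has medians of -1.30 and -1.06, and points beyond -4 there include genes at 3 counts or fewer in a group, whose fitted value depends on the prior count.

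The genes whose pattern over the 8 libraries was most like that of NFE2L2 and of HMOX1 were sought among 9951 genes of at least 10 mean CPM, by the root mean square difference of log2 CPM after each gene was centred on its own mean. For NFE2L2 they were DDX3X (0.0929), JPX (0.103) and TMEM14C (0.107). Mean levels of DDX3X were 309, 436, 809 and 1090 CPM in parental control, parental ADI, ρ0 control and ρ0 ADI cells. For HMOX1 they were RASSF1 (0.204), FSTL3 (0.228) and FAM13B (0.292), with RASSF1 at 16.5, 102, 72.7 and 102 CPM in the same order. The likeness is a description over libraries that share their groups.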

How the data were processed

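RNA from 8 libraries in 4 groups of 2 was sequenced. The deposited values are the authors' unnormalized counts of reads for each gene symbol, and the submitters' notes name Bowtie, Partek and hg19 without versions or roles. Coordinates above are from other builds and locate promoters only. Genes of the mitochondrial genome were not analysed here. The members and all lists were chosen with earlier results of these data known.

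Tests used edgeR 4.0.16 (R 4.3.3): filterByExpr, TMM scaling and the quasi-likelihood test with 1 mean per group over all 8 libraries (4 residual degrees of freedom, prior 3.40). P-values were Benjamini-Hochberg adjusted, and standard errors are the log2 fold change over the square root of F. The 2-fold bound is a log2 fold change above 1 or below -1. Levels are CPM. Further genes named are, per contrast, the 3 largest called rises and falls among the listed pathway genes with at least 10 mean CPM in a compared group and no overlap. FTL and GSTM3 were added after their values were seen.

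Alternatives were other scalings (total counts, upper quartile, DESeq2 size factors), at least 10 counts in every library or no filter, DESeq2 1.42.0, limma-voom (limma 3.58.1), the replicate number as a block, only the groups compared, and leaving out each library. Correlations of replicate deviations between groups were -0.203 to 0.0992. With 2 libraries per group, these values cannot show whether libraries of the same number were handled together.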

Additional observations from a re-analysis of the deposited data

Results flagged for a closer look

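The starvation response differed between ρ0 and parental cells, by the interaction in edgeR's fit, for 5 of the 10 genes. Of all tested genes, 21.6% were called higher and 18.8% lower, 6167 of 15262 in either direction. The 5 of 10 thus lay near the general share. The differences (ρ0 minus parental, log2) were -0.52 for KEAP1, -2.44 for HMOX1, 1.72 for NQO1, -2.06 for GCLM and -0.60 for TXN. The KEAP1 call was lost when any 1 parental or ρ0 ADI library was left out. It was also lost with upper quartile and total count scaling (adjusted p = 0.0536 and 0.0534).

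Among the other pathway genes named, it differed by 1.38 for BACH1, -1.90 for SLC3A2, 2.06 for GSTM4, -1.10 for GSTM3, 4.18 for IDH1, -1.001 for TXNRD2, -1.20 for FTL, 3.73 for SLC40A1, 1.87 for ABCB6, -1.77 for OSGIN1, 1.56 for TRIM16L, 1.77 for ABCC3 and -2.42 for ABCG2. The FTL and TXNRD2 differences were lost when any 1 of the parental or ρ0 ADI libraries was left out (adjusted p = 0.0602 to 0.0749 and 0.0543 to 0.0812), and that of TRIM16L without parental ADI 1 (adjusted p = 0.0536). FTL gave -1.54 and -0.77 without ρ0 control 1 and 2.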

How the results depend on the processing

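Over the 10 genes and 5 contrasts, leaving out 1 library changed no call in 343 of the fits, added 24, removed 28 and turned the direction in 5. Other settings changed none in 414, added 8, removed 14 and turned 4. The directions that turned were those of NFE2L2 in the difference between the lines (0.083 with upper quartile, 0.072 with total counts, 0.0026 without a filter, 0.00023 with limma-voom, -0.17 to 0.15 leaving out libraries) and of SRXN1 in ρ0 starvation (-0.61 to 0.27) and between control groups (-0.039 to 0.77). Upper quartile and total counts moved the median of all genes in parental starvation from -0.07 to -0.19 and -0.23.

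With only the groups compared, 2 of the 10 genes, 24 other pathway genes and 3127 of all tested genes passed in ρ0 starvation, in place of 5, 44 and 6308, and all 10 members passed between ADI groups in place of 6. Leaving out each library gave, in ρ0 starvation, 2 to 8 members called, 0 to 2 with the fold bound, 19 to 60 other pathway genes and 3169 to 9784 of all tested genes. For the difference between the lines it gave 4 to 10 members, 18 to 58 other pathway genes and 3513 to 10277 of all tested genes (5, 35 and 6167 in full), between ADI groups 6 to 10 members, in parental starvation 6 to 10 and between control groups 8 to 10. The highest counts came from fits without a ρ0 control library, where the spread is estimated without that uneven pair.

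With the replicate block, 9, 5, 5, 9 and 6 members passed in parental starvation, ρ0 starvation, the difference, and the control and ADI groups, as without it. The other pathway genes were rerun after seeing the data for 41 values, each gene in the contrast that named it, FTL and GSTM3 in both starvation contrasts and each called difference between the lines; 649 fits kept the call and 30 lost it.

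Depth limits GSTM1 and AKR1C1 in parental cells, at 7 reads or fewer per library.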
